A study of Homo sapiens with 10 samples.

Results

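The 7 genes described here stand at the receptor end and the nuclear end of the Wnt pathway and were followed across 4 deposited tables from HCT116, a human colorectal cancer cell line. They are the co-receptors LRP5 and LRP6, the receptor RYK, the Dishevelled genes DVL1, DVL2 and DVL3, and BCL9. The 7 were taken by name from 10942 gene names in the tables, and all 7 were among the 6914 intact names of the expression table. The groups were 2 ribosome profiling libraries of cells with YTHDF1 knocked down (shY1 in the genotype field) against 1 control library. Also used were 2 mRNA-seq libraries of knockdown cells against 1 control. A further 2 sets were 1 immunoprecipitation of RNA with a YTHDF1 antibody (RIP) against 1 whole-cell lysate input, and 2 m6A-seq replicates of control cells. The table headers name the control hairpin as shGFP. The treatment field of every sample gives cycloheximide at 100 ug/ml for 3 min. Titles name the knockdown libraries by shY1-1 and shY1-2 (libraries 1 and 2 here), while the genotype field names shY1 for both. Whether these are 2 hairpins or 2 repeats of 1 is not stated. Nothing states that libraries came from separate cultures, so p-values measure only the spread between these libraries.

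In canonical Wnt signalling a Wnt ligand brings a Frizzled receptor together with LRP5 or LRP6. Dishevelled then binds at the membrane, LRP5 or LRP6 is phosphorylated on its tail, and axin is drawn away from the complex that degrades beta-catenin. Beta-catenin enters the nucleus, where BCL9 joins it to Pygopus on TCF factors, while RYK binds Wnt ligands through an extracellular WIF domain and carries a kinase domain regarded as inactive. In the intestinal epithelium the pathway maintains stem cells. HCT116 carries a stabilising mutation of beta-catenin itself, which acts downstream of the receptors. YTHDF1 is a cytoplasmic reader of N6-methyladenosine (m6A) in mRNA, and the study asked which mRNAs it regulates in translation.

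The libraries matched their labels at the targeted gene. YTHDF1 mRNA stood at 8.62 and 7.81 in knockdown cells against 27.4 in control cells. Of 8 epithelial markers 6 were in the expression table, and their summed mRNA values were 5499 and 3403 in knockdown cells against 3920 in control cells. No blood cell marker (of 6) and 1 fibroblast marker (of 7) was listed. That marker, COL1A1, had footprint values of 13.2 and 3.71 in knockdown cells against 0.631 in control cells, and its part in any result was not tested. The table's values are a relative abundance whose unit is not named, and they summed to between 938928 and 1227324 in footprint libraries and between 339763 and 345044 in mRNA libraries, so the reads behind a value are unknown.

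After knockdown, ribosome footprints of DVL2, BCL9, RYK and DVL1 lay above the control in both libraries, and those of LRP6, DVL3 and LRP5 lay below it in both. Ratios of knockdown mean to control lay between 0.588 and 4.21 for their footprints and between 0.768 and 1.28 for their mRNA. The mRNA change was the smaller of the 2 in log2 size for all but LRP5 and DVL3. No member passed in limma over 6782 genes at an adjusted p of 0.05 for footprints, mRNA or translational efficiency. Over all genes 0.0295% passed for footprints, 0.0% for mRNA and 0.0% for translational efficiency. At an unadjusted p under 0.05 in limma, 3 members (DVL2, RYK and BCL9) were higher in footprints, as were 1.86% of all genes, and 0 were lower, as were 6.99%. That count leans on the spread shared with the mRNA libraries. In a fit of the footprint libraries alone DVL2 stayed under this threshold, and RYK and BCL9 did not. For translational efficiency 1 member (DVL2) was higher (0.59% of all genes) and 0 lower (2.14%), and for mRNA 0 were higher (0.177%) and 0 lower (0.295%). In footprints 4 members had both knockdown libraries above the control, as did 17.5% of all genes, and 3 had both below it, as did 51.2%. In mRNA 2 had both above (30.9% of all genes) and 1 below (29.9%). In translational efficiency, taken between libraries of the same number, the same 4 as in footprints had both above (18.7%) and LRP6 and DVL3 had both below (52.0%). The members were chosen with results of these data known, so the high place of DVL2 is not independent support. In such bulk libraries, fewer cells of a kind and less RNA per cell cannot be told apart.

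**Figure D1:**
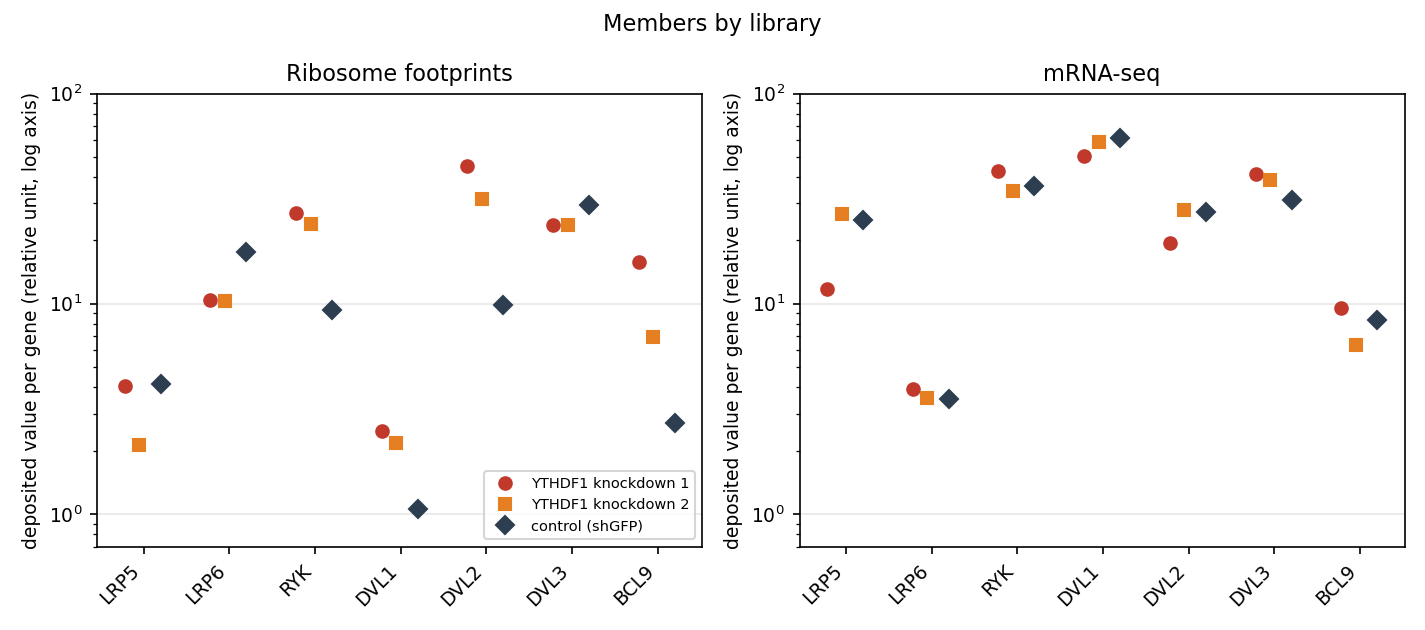
Deposited values of the 7 genes in each footprint library (left) and mRNA library (right), on log axes. Circles and squares are YTHDF1 knockdown libraries 1 and 2, and diamonds are the control with shGFP. DVL2 footprints stand at 45.1 and 31.5 in knockdown libraries against 9.82 in the control, while its mRNA stands at 19.4 and 27.9 against 27.3.

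Among the co-receptors, LRP6 had footprint values of 10.4 and 10.3 in knockdown libraries against 17.6 in the control. Both knockdown values lay close together and below the control. The knockdown mean was 10.3 ± 0.0827 (SD, n = 2), 0.588 of the control. The log2 change was -0.71 ± 0.46 (SE, on the log2(value + 1) scale, as are all log2 changes here), with limma adjusted p = 0.629. The median footprint change of all genes was -0.28, and LRP6 stood at -0.43 relative to it, at the 22.3rd percentile of changes. LRP6 mRNA was 3.94 and 3.55 in knockdown libraries against 3.53 in the control, so that its transcript level differed by less than its footprints did. The change in translational efficiency, the footprint change minus the mRNA change, was -0.78 ± 0.65, with limma adjusted p = 0.996.

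LRP5, the paralog of LRP6, had footprint values of 4.05 and 2.13 in knockdown libraries against 4.15 in the control. Knockdown 1 was level with the control and knockdown 2 lay below it. LRP5 mRNA was 11.8 and 26.8 in knockdown libraries against 25.1 in the control, on opposite sides of it. The log2 changes were -0.37 ± 0.63 for footprints and -0.47 ± 0.63 for mRNA, with limma adjusted p = 0.850 and 1.00. Translational efficiency of the same-numbered libraries stood at 1.00 in knockdown 1 and -0.81 in knockdown 2 relative to the control, so that its mean of 0.10 describes neither library. The LRP6 over LRP5 ratio of footprint values was 2.56 and 4.83 in knockdown libraries and 4.23 in the control, with overlap between the groups.

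RYK footprints stood at 27.1 and 24.1 in knockdown libraries against 9.30 in the control. Both knockdown libraries lay well above the control and near each other. Their mean of 25.6 ± 2.13 (SD, n = 2) was 2.75 times the control value. The log2 change was 1.37 ± 0.38, with limma adjusted p = 0.552, at rank 123 from the highest of 6782 genes. RYK mRNA was 42.8 and 34.5 in knockdown libraries against 36.1 in the control, which lay between them. Translational efficiency stood at 1.28 ± 0.54, with limma adjusted p = 0.996.

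The Dishevelled genes encode scaffold proteins that polymerise through their DIX domain and relay the signal from the receptor to axin, and they differed from each other in footprints. DVL2 had footprint values of 45.1 and 31.5 in knockdown libraries against 9.82 in the control, so both libraries lay above it. The mean of 38.3 ± 9.65 (SD, n = 2) was 3.90 times the control, a change at rank 45 of 6782 genes. DVL2 mRNA was 19.4 and 27.9 in knockdown libraries against 27.3 in the control, which lay between them. DVL3 lay below the control in footprints and above it in mRNA. Its footprints were 23.6 and 23.8 in knockdown libraries against 29.4 in the control, and its mRNA was 41.4 and 38.6 against 31.3. The log2 changes of DVL3 were -0.30 ± 0.35 for footprints and 0.34 ± 0.35 for mRNA, with limma adjusted p = 0.778 and 1.00. Relative to the median of all genes the footprint change of DVL3 was -0.02, so that the gene lay in the middle of the distribution.

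DVL1 had the lowest footprint values of the 7 genes relative to its mRNA. Footprints were 2.47 and 2.19 in knockdown libraries against 1.06 in the control, and both libraries lay above it. The mean was 2.20 times the control, while the log2 change of 0.69 ± 0.43 understates this because the values are near the added 1 (limma adjusted p = 0.620). DVL1 mRNA was 50.3 and 59.1 in knockdown libraries against 61.2 in the control. Within a library the ratio of 2 genes does not depend on how the library was scaled. The DVL2 over DVL3 ratio of footprint values was 1.91 and 1.32 in knockdown libraries against 0.334 in the control, while the same ratio of mRNA values was 0.469 and 0.722 against 0.871. For DVL1 over DVL3 the footprint ratio was 0.104 and 0.0919 against 0.0360, and the mRNA ratio 1.22 and 1.53 against 1.96. In both pairs the footprint ratio was higher and the mRNA ratio lower in each knockdown library than in the control. Both pairs share DVL3, so they are not separate observations. DVL3 mRNA lay above the control in both knockdown libraries, while DVL2 mRNA in knockdown 2 was 27.9 against 27.3 in the control. The RefSeq table lists pseudogenes named for DVL1 (DVL1P1), RYK (RYKP1), BCL9 (BCL9P1) and LRP5 (LRP5L), and the sources used here do not say how reads shared with them were counted.

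BCL9, the adaptor between beta-catenin and Pygopus, had footprint values of 15.8 and 6.98 in knockdown libraries against 2.71 in the control. Both lay above the control but were far apart. Their mean of 11.4 ± 6.24 (SD, n = 2) was 4.21 times the control, and the log2 change was 1.64 ± 0.61 at rank 63 of 6782 genes (limma adjusted p = 0.552). In knockdown 1 the change was 2.18 and in knockdown 2 it was 1.11. The control value of 2.71 lay at the 7.5th percentile of control footprints among genes tested, so the fold rests on a low value. With 5 added in place of 1, the log2 change of BCL9 footprints was 1.03. BCL9 mRNA was 9.54 and 6.36 in knockdown libraries against 8.37 in the control. Translational efficiency stood at 1.73 ± 0.86 for BCL9, at 2.06 ± 0.62 for DVL2 and at 0.86 ± 0.61 for DVL1, each with limma adjusted p = 0.996, and at -0.64 ± 0.50 for DVL3 with the same adjusted p.

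**Figure D2:**
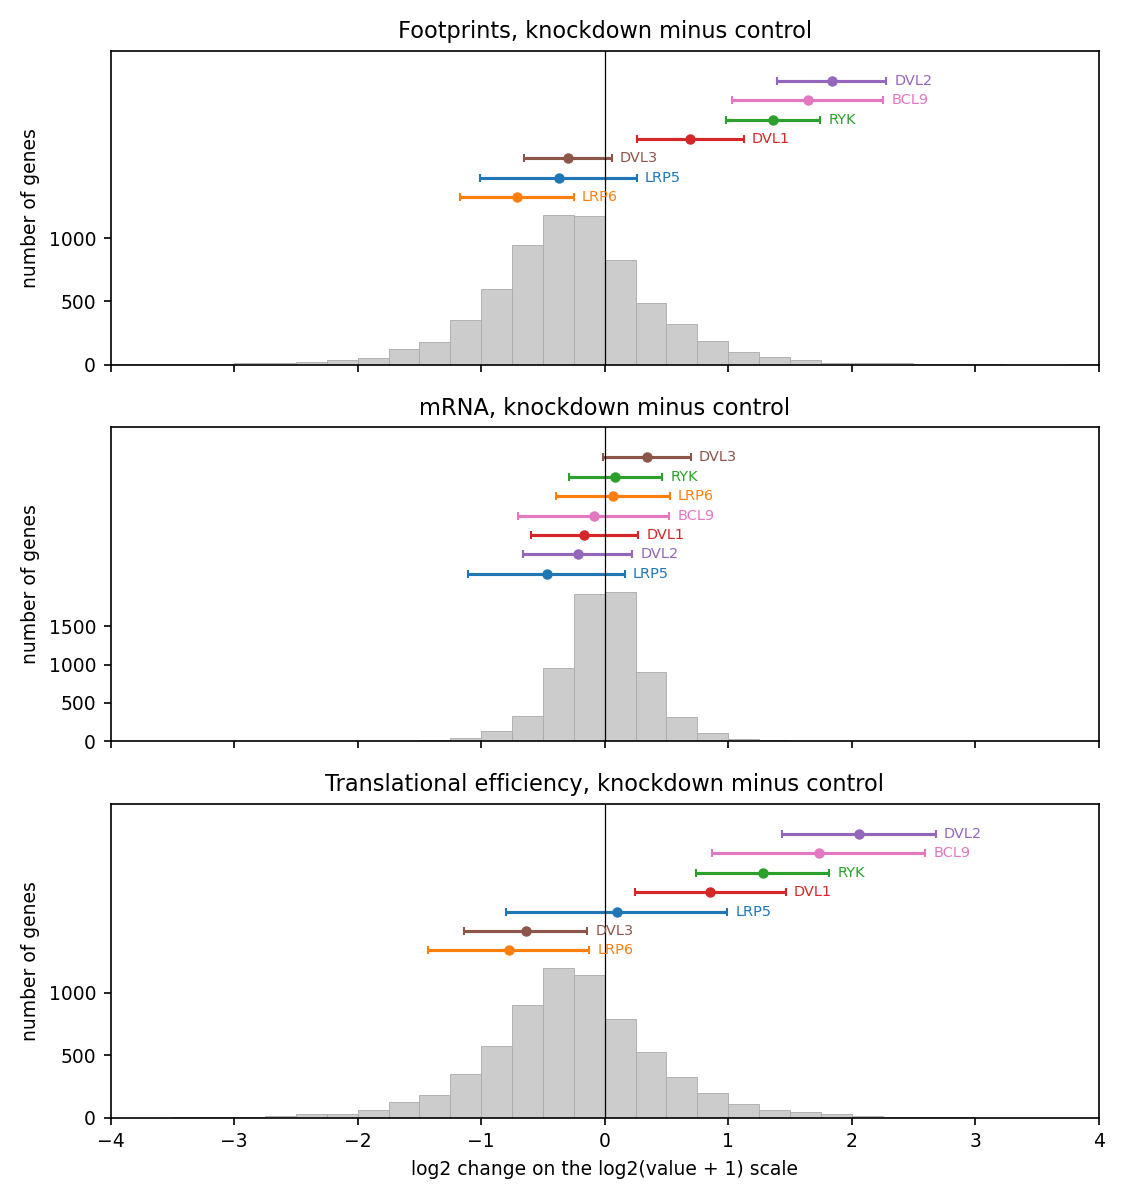
Log2 changes of the 7 genes (points, with bars of 1 SE from limma) above the distribution of changes over 6782 genes (grey, genes per bin), as knockdown minus control for footprints, mRNA and translational efficiency. DVL2, BCL9 and RYK stand at 1.84, 1.64 and 1.37 in footprints, where the median of all genes is -0.28, and no member stands out in mRNA.

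The 7 genes were also ranked within each library by footprint value over mRNA value, a ratio in which transcript length cancels if both values were made alike. In both knockdown libraries the order was LRP6, DVL2, BCL9, RYK, DVL3, LRP5, DVL1. LRP6 stood there at 2.64 and 2.90, DVL2 at 2.32 and 1.13, BCL9 at 1.66 and 1.10, and RYK at 0.633 and 0.697. DVL3 stood at 0.571 and 0.616, LRP5 at 0.344 and 0.0794, and DVL1 at 0.0491 and 0.0370. DVL2 and BCL9 were closer to each other in knockdown 2 than either was to itself between the knockdown libraries, and RYK and DVL3 also lay close together. In the control the order was LRP6, DVL3, DVL2, BCL9, RYK, LRP5, DVL1, with DVL3 above DVL2, BCL9 and RYK instead of below them. LRP6 had a control ratio of 4.98, which lay at the 78.0th percentile of genes tested, and DVL3 had one of 0.938, at the 21.0th. DVL2, BCL9, RYK and LRP5 stood in the control at 0.360, 0.323, 0.257 and 0.165, at the 5.75th, 4.92nd, 3.39th and 1.42nd percentiles. DVL1 had a control ratio of 0.0173, the lowest of all 6782 genes tested. The lowest control value in the table was 0.5002 for footprints and 0.5012 for mRNA, so genes with still fewer footprints in the control would not appear in it.

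**Figure D3:**
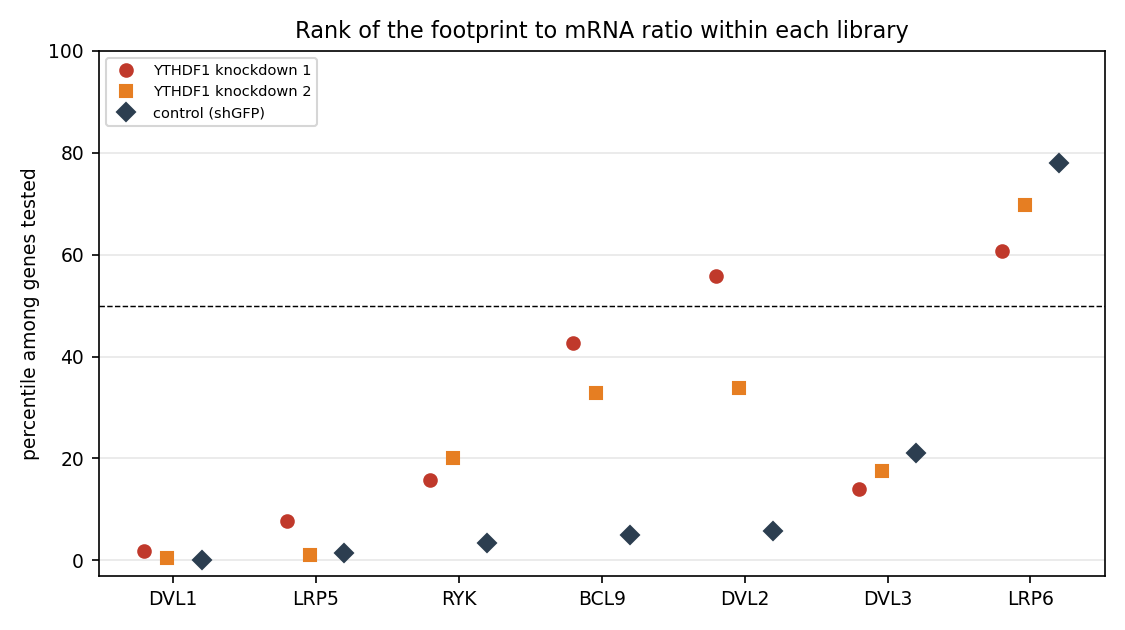
Percentile of the footprint to mRNA ratio of each gene among all genes tested in the same library, with knockdown libraries as circles and squares and the control as diamonds, and the dashed line at the median gene. DVL2 lies at 55.8 and 33.8 in knockdown libraries against 5.75 in the control, and LRP6 at 60.7 and 69.7 against 78.0.

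All but LRP6 and DVL3 lay in the lowest 10% of genes by that ratio in the control, a set of 679 genes looked at after the values were seen. The same control library enters the ratio and the change. In that set 35.9% of genes had both knockdown footprint libraries above the control, against 15.4% of the other 6103 genes, and the median footprint change was 0.04 against -0.31. The median change in translational efficiency was 0.19 in the set and -0.31 in the other genes. Within the set the footprint changes of DVL2, BCL9, RYK, DVL1 and LRP5 stood at the 97.5th, 96.0th, 92.0th, 78.1st and 25.3rd percentiles. The part of the low control ratio in the changes was not tested.

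In the YTHDF1 RIP, 4 of the 7 genes were in the authors' list (35.6% of genes tested in the expression table were), which holds 3939 entries with a RIP over input ratio of at least 1.5 and an input of at least 1.00 FPKM. LRP6 had 5.21 FPKM in the RIP and 1.10 FPKM in the input, a ratio of 4.74 at the 93.4th percentile of the list. LRP5 had 22.9 FPKM in the RIP and 7.82 FPKM in the input, a ratio of 2.93. BCL9 had 21.5 and 9.49 FPKM and a ratio of 2.27, and DVL1 had 35.9 and 18.8 FPKM and a ratio of 1.91. The input of LRP6 lay at the 2.54th percentile of the list. Among 517 listed genes with an input within 1.5-fold of it, the median ratio was 2.69 and LRP6 stood at the 84.1st percentile. Among such peers, whose median ratios were 2.17, 2.12 and 2.11, LRP5, BCL9 and DVL1 stood at the 77.3rd, 57.9th and 35.9th percentiles. With 1 added to both values, the ratio of LRP6 was 2.96 and that of LRP5 was 2.71. RYK, DVL2 and DVL3 were not listed, and whether their ratio or their input fell short is not shown by the list. There is 1 RIP library and 1 input, so these ratios have no replicate check. By input FPKM, which is per length, the order of the 4 listed genes from the highest was DVL1, BCL9, LRP5 and LRP6. The mRNA-seq libraries differed from this order, with LRP5 above BCL9 in each, at 25.1 against 8.37 in the control.

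The m6A lists give windows along an unnamed transcript, called per replicate, each at least 3.00 times over input and the nearest site of a 5-letter motif. That motif is A or G, A or G, A, C, and then A, C or T, the consensus in which m6A is laid down. All 7 genes had a window in at least 1 replicate, as did 83.3% of genes tested. All but DVL1 (6 genes) had one in both replicates, as did 72.5%, and the same 6 had windows that overlapped between replicates, as did 70.5%. Of the members' 26 windows in replicate 1, 19 overlapped one of replicate 2 by at least 1 base (73.1%, against 74.5% of all 24494 windows). Of their 25 windows in replicate 2, 17 overlapped one of replicate 1 (68.0%, against 72.6% of all 24855). At 5972 windows with the same bounds in both lists the input signal was identical in 100.0%, so the replicates share 1 input and their ratios are not independent in it.

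The sites that both replicates named at the same position are shown because they tie a window to its letters. There were 12 of them in 5 of the genes, or 46.2% of the members' windows in replicate 1 and 48.0% in replicate 2, against 58.0% and 57.1% of all windows. In each, the capital marks the adenosine of the consensus, and positions are counted along the transcript as the lists give them.
LRP5 at 3125: ggAcc
LRP6 at 306: gaAca
LRP6 at 2165: gaAca
LRP6 at 3248: agAcc
RYK at 864: gaAct
RYK at 1730: ggAca
DVL3 at 2365: aaAcc
BCL9 at 1399: gaAca
BCL9 at 1589: aaAct
BCL9 at 2039: ggAca
BCL9 at 4034: ggAcc
BCL9 at 4688: agAcc
Sites starting with GGAC made up 4 of these 12. Over the members' windows they were 10 of 26 in replicate 1 and 8 of 25 in replicate 2, against 30.7% and 29.5% of all windows. GAACA was named at 9 of the members' windows over both replicates, all in LRP6 and BCL9, and GGACA and GGACC at 7 each. Among these 9, sites 306 and 2165 of LRP6 and 1399 of BCL9 count in both replicates. Of all windows GAACA was named at 8.51% and 8.67%, and GGACA, the most common, at 11.5% and 11.0%. At RYK 1730 and BCL9 1589 the named site lay outside its window in both replicates, whereas 80.9% of all windows in each replicate held their named site.

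LRP6 and BCL9 had the most windows of the 7 in each replicate, a number not set against transcript length. LRP6 had 8 windows in replicate 1 and 7 in replicate 2, at the 98.0th and 96.6th percentiles of genes by window number, covering 1225 and 1650 bases. Its highest ratio was 33.0 in replicate 1, at a window from 2350 to 2475 whose input signal was 24.0, and replicate 2 covered the same stretch with 1 window from 2100 to 2475 at a ratio of 17.9. Near 306 the ratio was 10.9 in replicate 1 and 18.6 in replicate 2. The widest window of LRP6 in each replicate lay between 4375 and 4900, at a ratio of 13.5 over 350 bases in replicate 1 and of 9.08 over 525 bases in replicate 2. BCL9 had 7 windows in each replicate and 5 of them at the same sites. The window from 1625 to 1700 was the strongest of BCL9, with ratios of 12.6 and 13.7.

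LRP5 had 2 windows in replicate 1 and 4 in replicate 2. Its window from 3075 to 3175 had ratios of 11.0 and 10.8, with its summit at 3124 and 3115. RYK had 4 windows in each replicate, and those near 864 had ratios of 7.83 and 7.98. DVL3 had 3 windows in replicate 1 and 2 in replicate 2, of which those at site 2365 overlapped, with ratios of 4.26 and 4.53. DVL2 had 1 window in each replicate. They overlapped, from 1250 to 1350 at a ratio of 8.71 and from 1100 to 1350 at a ratio of 3.99, but named different sites at 1296 and 1224. DVL1 had 1 window, from 1000 to 1050 in replicate 1, at a ratio of 4.62. The median gene with any window had 2 in each replicate, so DVL1 and DVL2 were below it in both. Of the 4 genes with footprints above the control, DVL1 and DVL2 had the fewest windows of the 7 and RYK and BCL9 had 4 and 7 in each replicate, while the 3 genes below it had 2 to 8.

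**Figure D4:**
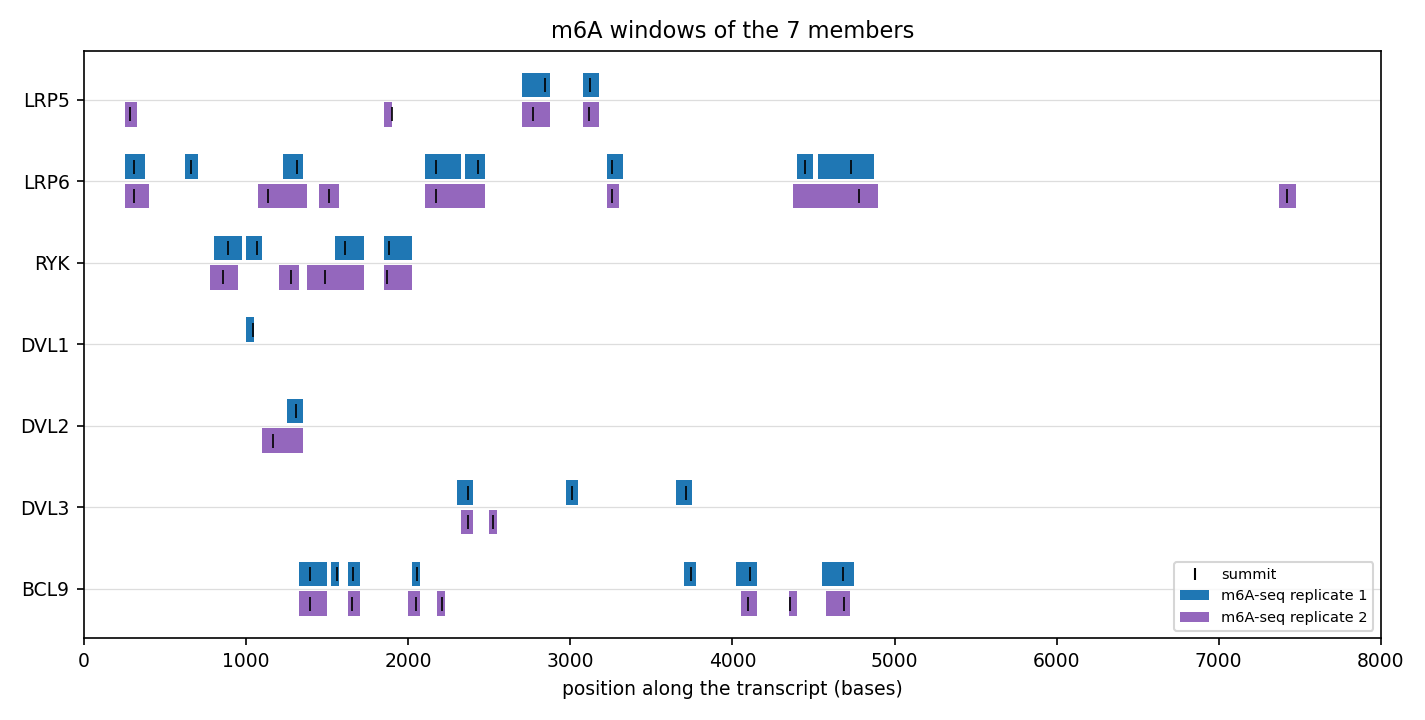
Windows of m6A enrichment along each gene's transcript (x axis, bases), in replicate 1 (upper bar) and replicate 2 (lower bar), with ticks at the summits. LRP6 and BCL9 carry 7 or 8 windows in each replicate, while DVL2 carries 1 in each and DVL1 1 in replicate 1.

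Of 182 other Wnt pathway names in 5 lists, 73 were tested, and 0 passed in limma in either direction for footprints, mRNA or translational efficiency. At an unadjusted p under 0.05 in limma there were 5, 0 and 0 of them, where all 6782 genes counted 600, 32 and 185. In footprints 15 of the 73 had both knockdown libraries above the control (17.5% of all genes) and 41 both below (51.2%). Their median change was -0.23 beside -0.28 for all genes. Of 9 receptors and membrane partners, 0 had both libraries above the control and 6 below, with a median of -0.49. For 24 Dishevelled partners and regulators 4 lay above and 13 below (median -0.18), for 24 nuclear partners of beta-catenin 6 and 14 (-0.34), for 9 destruction complex genes 4 and 3 (-0.06), and for 7 ligand and inhibitor genes 1 and 5 (-0.35). PPP2R1A, a scaffold subunit of protein phosphatase 2A, had the highest footprint change among those of at least lower-quartile level with both knockdown libraries on the same side of the control, with values of 659 and 475 in knockdown libraries against 211 in the control. KREMEN1, a receptor for Dickkopf inhibitors, had footprint values of 2.01 and 1.99 in knockdown libraries against 6.26 in the control, and mRNA values of 9.35 and 21.1 against 23.6. By the same rule the log2 footprint changes of CHD8 (-3.005) and TCF7L2 (-1.545) were lower than that of KREMEN1 (-1.275). The CHD8 knockdown values, 19.6 and 1228 against 1275 in the control, were far apart. GSK3B, a kinase that phosphorylates beta-catenin, had mRNA values of 28.6 and 26.2 in knockdown libraries against 15.2 in the control. The log2 mRNA changes of CCDC88C (1.172) and CAPRIN2 (0.845) were higher than that of GSK3B (0.811). Of the 73 tested genes 39 were in the RIP list (35.6% of all genes tested) and 59 had m6A windows in both replicates (72.5%). The highest RIP ratios of the lists were those of CELSR1 and USP34, at 7.55 and 6.77. KMT2A had the most windows, 19 in replicate 1 and 24 in replicate 2.

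Patterns most like each member were sought by the distance over 4 log2 changes, those of the knockdown libraries against the control in both assays. The nearest genes were MRPS25 to LRP6 (distance 0.12), PLA2G16 to DVL3 (0.12), MRPL17 to DVL1 (0.14), ATN1 to LRP5 (0.20), PI4KA to RYK (0.28), SLC48A1 to BCL9 (0.40) and SLC16A6 to DVL2 (0.48). No member was the nearest neighbour of another. Each was set against all genes at or above the lower quartile of level, so this does not show whether the members are alike. The genes lie, in GRCh38.p14 of the RefSeq table, on chromosome 11 from 68298412 to 68449275 (LRP5), chromosome 12 from 12116025 to 12267044 (LRP6), chromosome 3 from 134157133 to 134250859 (RYK) and from 184155377 to 184173614 (DVL3), chromosome 1 from 1335278 to 1349418 (DVL1) and from 147541501 to 147626216 (BCL9), and chromosome 17 from 7225342 to 7234517 (DVL2).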

How the data were processed

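The submitters' processing notes name STAR and GRCh38. Versions, counting and the peak caller are not given in the sources used. The authors deposited a signal per gene for footprints and mRNA (its unit is not named in the headers), FPKM in RIP and input, and m6A windows with signal in immunoprecipitate and input. The authors deposited the ratio of RIP over input and of peak over input, with peaks listed per replicate. Peak ratios are the authors' own values. RIP ratios were recomputed from the FPKM values. The expression table had 6926 rows, of which 12 with damaged names and 132 with a mean log2(value + 1) under 1 were left out. The limma-trend fit (limma 3.58.1 in R 4.3.3) gave each assay and condition 1 mean over 6 libraries, with 2 residual degrees of freedom, and p-values were 2-sided, adjusted by Benjamini-Hochberg and called at 0.05. Each control has 1 library, so its spread is taken to equal that of the knockdown pairs. Footprints and mRNA share 1 spread per gene, so the SE and p of each assay also carry the spread of the other. The fit was also run on simulated data drawn with 1 spread per gene in all libraries, so that run does not test whether the spread is equal. Tables and ratios were computed with pandas 2.3.3. Members and gene lists were chosen with earlier results of these data known. Other pathway genes were named by the 3 highest and 3 lowest changes per contrast among genes at or above the lower quartile of level whose knockdown libraries both lay above or both below the control, the 5 highest RIP ratios and the 5 highest window counts, of which some are given. Likeness took the 2 nearest genes by Euclidean distance. Alternatives covered pseudocount, filters, scaling, left-out libraries, a replicate block, thresholds and overlap.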

Additional observations from a re-analysis of the deposited data

How the results depend on the processing

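No member passed under any alternative run. The smallest limma adjusted p over all alternatives was 0.0747, for DVL2 footprints without library 2 of the footprint knockdown, with a range up to 0.944. With either footprint knockdown library left out, footprints are 1 library against 1 and the spread comes from the mRNA pair alone, so that p and the counts for those settings do not measure footprint spread. Footprint changes kept their sign in every alternative that tested the gene (12 each, and 11 for LRP6, which the stricter filter leaves out), between 1.53 and 2.13 for DVL2, 1.03 and 2.18 for BCL9, 1.09 and 1.66 for RYK, 0.27 and 1.13 for DVL1, -0.76 and -0.42 for LRP6, -0.31 and -0.01 for DVL3, and -0.72 and -0.03 for LRP5. The count of all genes that passed for footprints, 2, was 0 with a pseudocount of 0.1, without a filter, with median centring and with quantile normalisation, and between 2 and 80 with 1 knockdown library left out (8 without footprint library 1, 80 without footprint library 2). For mRNA and for translational efficiency that count was 0 or 1 with a library left out, the 1 without mRNA library 1 in each case. With the replicate block, which takes the number of the knockdown library as a term, 30 genes passed for footprints, 2 for mRNA and 6 for translational efficiency. The labels do not state that numbers pair cultures, and differences between knockdown libraries correlated at 0.37 across genes between assays. With 1 library left out, the sign turned for some small changes. The mRNA change lay between -1.03 and 0.09 for LRP5, -0.064 and 0.24 for RYK, -0.47 and 0.031 for DVL2 and -0.35 and 0.17 for BCL9, turning without mRNA library 1 for LRP5, RYK and DVL2 and without mRNA library 2 for BCL9. The translational efficiency of LRP5 lay between -0.46 without mRNA library 1 and 0.66 without mRNA library 2, and was -0.25 without footprint library 1. At a ratio of at least 5 the members' overlapping m6A windows of replicate 1 were 11 in place of 19. Members with a window in both replicates were then 4 in place of 6. At a RIP ratio of at least 2, 3 members were listed in place of 4. Shares of all genes at these stricter thresholds are not given here, so the members cannot be set against them. The cause of these shifts was not tested. Leaving out a lone control was not possible.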
